A study of Mus musculus with 3 samples.

Results

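Slc15a2 encodes PEPT2, a transporter of small peptides, and was followed here through the stromal vascular cells of mouse inguinal fat, the fraction that is left once the fat cells have been removed. It is 1 of 28692 genes counted in the study's 3 single-cell RNA libraries. It was chosen from these same data because its level in the library from cold-exposed mice stood above that in the other libraries, so the ranking of the cold library over the others is given as a description and was not tested. It was read in cells with at least 500 detected genes and at most 15% mitochondrial UMIs (unique molecular identifiers, each marking 1 captured RNA molecule), and in every cell class that held at least 50 cells in at least 1 library. Under that rule 13 classes were described, and 10 of them held at least 50 cells in each library.

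All mice were C57BL/6, with no transgene or mutation named. The cold library came from mice kept at 4 C for 3 days, the CL library from mice injected intraperitoneally for 3 days with 1 mg/kg of CL 316,243, an agonist of the β3-adrenergic receptor, and the saline library from mice given saline. How long saline was given, whether the cold-exposed mice were injected, and the age, sex and number of animals are not given in the sources used here. Each group is 1 library made with 10x Chromium 3' v3 chemistry, so there is no replicate check. A difference between libraries cannot be told apart from a difference between conditions, and every interval below is a 95% interval for counting error only.

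PEPT2 moves dipeptides and tripeptides, and drugs that resemble them, into the cell together with protons. It binds its substrates with higher affinity than its relative PEPT1 (Slc15a1), and it is best known from the kidney tubule, where it recovers peptides from the filtrate, and from the choroid plexus and lung epithelium. Transporters of this family also carry bacterial cell wall fragments to the receptors NOD1 and NOD2 inside immune cells.

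Slc15a2 (ENSMUSG00000022899) lies on the minus strand of chromosome 16 at chr16:36750177-36784962 of GRCm38 (mm10), in the GENCODE M21 annotation. It spans 34786 bases, and the only annotated gene that overlaps it is the pseudogene Gm8425. Its promoter is shown because the results below turn on a difference in its level between libraries. The sequence is from RefSeq (GRCm38.p6, chr16:36784913-36785212, minus strand), runs from 250 bases before to 50 bases after the gene's start, and has the core of a cyclic AMP response element, TGACGT, in capitals.
Slc15a2 promoter: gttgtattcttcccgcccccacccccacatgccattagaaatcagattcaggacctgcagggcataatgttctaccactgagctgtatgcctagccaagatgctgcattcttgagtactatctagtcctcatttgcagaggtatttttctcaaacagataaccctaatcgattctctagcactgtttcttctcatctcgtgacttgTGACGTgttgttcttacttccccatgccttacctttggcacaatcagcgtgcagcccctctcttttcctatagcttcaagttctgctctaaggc
The core TGACGT had 1 match, 44 bases before the start, and is found on either strand in 7.51% of 32851 promoters of the same length. The shorter TGACG, which overlaps it, occurs in 20.8% of them. The full element TGACGTCA (1.79% of promoters), the mild-cold response element TCCCCGCC (5.38%) and the E-box CACGTG (7.15%) had 0 matches in this window on either strand. A match is a description of the letters and not evidence of binding.

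After the filters, 3862 of 5050 cold, 6705 of 7943 CL and 6271 of 7674 saline barcodes remained, with a median of 3624.5, 3847 and 3242 UMIs per cell. The libraries shared few cell barcodes: 4 between cold and CL, 7 between cold and saline and 9 between CL and saline. The cold library lost the largest share of its barcodes to the filters, keeping 76.5% against 84.4% in CL and 81.7% in saline. Its median mitochondrial share was also the highest, at 6.49% against 4.11% in CL and 5.67% in saline. Cells were clustered without Slc15a2, and clusters were named from marker genes. In every class described, all of its own markers reached 50 CPM (UMIs of a gene per 1000000 UMIs of all genes in those cells) in each library, except that 5 of 6 did so in the CL cells of the cDC2-like class. The Y-linked Ddx3y was at 115, 83.9 and 128 CPM in cold, CL and saline cells, while Xist had 0, 3 and 2 UMIs.

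Over all cells, Slc15a2 had 1116 UMIs in cold cells, 242 in CL cells and 90 in saline cells. That is 61.0 CPM in cold cells (interval 57.5 to 64.7), 8.63 CPM in CL cells (7.58 to 9.79) and 3.67 CPM in saline cells (2.95 to 4.51). The 3 intervals do not overlap. The log2 ratio of CPM was 4.06 for cold over saline (3.75 to 4.38), or 16.6-fold, 2.82 for cold over CL (2.62 to 3.03) and 1.24 for CL over saline (0.88 to 1.60). Among all genes with at least 20 UMIs in the pair of libraries, 3.05% were at least 2-fold higher in cold than in saline, and 13 of those 14262 genes had a larger ratio than Slc15a2. For CL over saline 5.34% of genes were at least 2-fold higher, and 536 had a larger ratio than Slc15a2. Both ratios use the same saline library.

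The same order held for the number of cells in which the transcript was seen. At least 1 Slc15a2 UMI was found in 798 cold cells, 20.7% of the library (19.4 to 22.0), in 215 CL cells, 3.21% (2.80 to 3.66), and in 76 saline cells, 1.21% (0.956 to 1.52). Most of these cells held a single UMI: 580 of the 798 in cold, 190 of the 215 in CL and 65 of the 76 in saline. The highest number in 1 cell was 6 in cold, 3 in CL and 4 in saline. The signal was thus spread over many cells, and the 3 cells richest in Slc15a2 held 16 of its 1116 UMIs in cold.

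The libraries differed in their make-up. B cell-like cells made up 35.8% of cold, 3.49% of CL and 25.6% of saline cells, and they held 47.8% of the Slc15a2 UMIs in cold, 11.2% in CL and 33.3% in saline. With each of the 10 fully populated classes given the same weight, the mean level was 60.1 CPM in cold, 15.1 CPM in CL and 4.91 CPM in saline. Equal weighting moved the cold mean by little and brought CL nearer to cold, but left the order as it was.

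**Figure D1:**
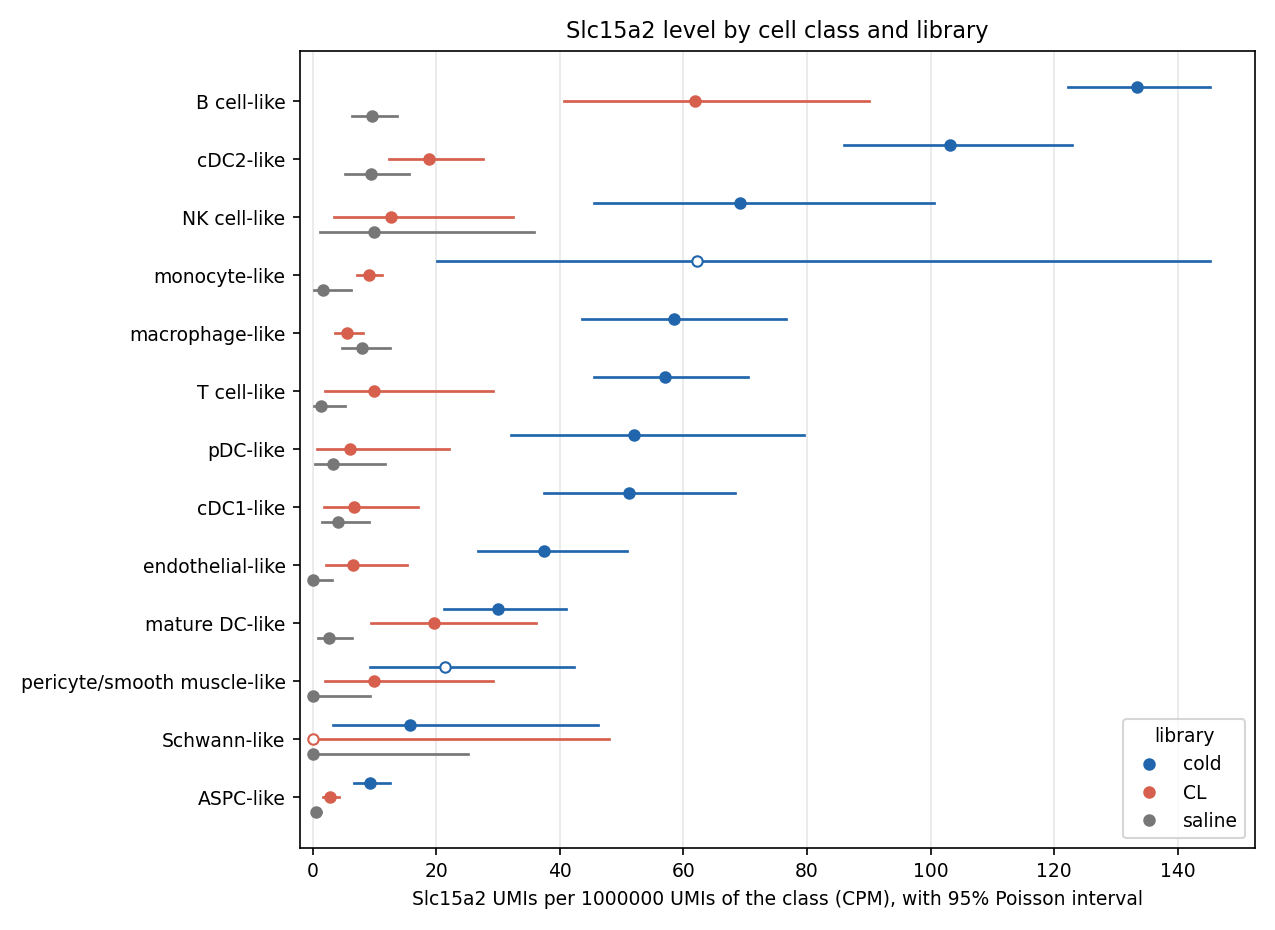
Slc15a2 in CPM (x axis) by cell class (rows), with a point and a 95% Poisson interval for the cold, CL and saline library; open circles mark classes with fewer than 50 cells in that library. The cold point lies farthest right in each of the 13 classes, from 9.29 CPM in ASPC-like to 133 CPM in B cell-like cells.

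In cold cells the level was highest in B cell-like cells (lymphocytes that can become antibody-secreting cells), at 133 CPM in cold (122 to 145), 61.8 CPM in CL (40.7 to 90.0) and 9.56 CPM in saline (6.45 to 13.6). These rest on 533 UMIs in 1384 cold cells, 27 UMIs in 234 CL cells and 30 UMIs in 1608 saline cells. The cold level was above both others with no overlap of the intervals, and CL was also above saline. The log2 ratio was 3.80 for cold over saline (3.27 to 4.38), 1.11 for cold over CL (0.55 to 1.72) and 2.69 for CL over saline (1.89 to 3.49). With at most 5% mitochondrial UMIs the cold over CL ratio of B cell-like cells was 0.49 (-1.71 to 3.71), an interval that includes 0.

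Next came the cDC2-like class (conventional dendritic cells that present antigen mainly to helper T cells), at 103 CPM in cold (86.0 to 123), 18.9 CPM in CL (12.3 to 27.6) and 9.43 CPM in saline (5.28 to 15.6). It had the highest share of cells with a UMI among classes with at least 50 cells in a library, 40.2% of 194 cold cells against 6.60% of 318 CL cells and 3.34% of 329 saline cells. The log2 ratio was 3.45 for cold over saline (2.68 to 4.33) and 1.00 for CL over saline (0.03 to 2.02), whose interval includes 0 under 5 alternatives (0.89 to 1.02). The cDC1-like class (dendritic cells that cross-present antigen to killer T cells) stood at 51.2 CPM in cold (37.5 to 68.3), 6.70 CPM in CL and 4.19 CPM in saline. Here 46 UMIs were counted in cold, 4 in CL and 6 in saline, so CL and saline could not be told apart: the log2 ratio of CL over saline was 0.68 (-1.59 to 2.75). Plasmacytoid dendritic-like cells, the interferon-producing type, were at 52.0 CPM in cold (32.2 to 79.5), 6.12 CPM in CL and 3.26 CPM in saline, with 2 UMIs in each of CL and saline.

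Mature dendritic-like cells, the migratory state, showed the smallest gap between cold and CL. Their level was 29.97 CPM in cold (21.3 to 41.0), 19.6 CPM in CL (9.41 to 36.1) and 2.71 CPM in saline (0.878 to 6.31). The cold and CL intervals overlap, and the log2 ratio of cold over CL was 0.61 (-0.42 to 1.78). Both were above saline, with a log2 ratio of 3.47 for cold (2.13 to 5.17) and 2.86 for CL (1.18 to 4.76). With at most 5% mitochondrial UMIs the order of cold and CL turned round in this class, with 18.0 CPM in cold and 20.9 CPM in CL.

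Among the 10 fully populated classes, macrophage-like cells, the phagocytes of the tissue, were the only one in which the CL value was below the saline value. Slc15a2 was at 58.5 CPM in cold (43.7 to 76.7), 5.58 CPM in CL (3.61 to 8.24) and 7.95 CPM in saline (4.71 to 12.6). Cold stood clear of both, with a log2 ratio of 2.88 over saline (2.08 to 3.74) and 3.39 over CL (2.67 to 4.14). For CL over saline the ratio was -0.51 (-1.44 to 0.45), an interval that includes 0. The class was made up of different clusters in the libraries, and in the 1 cluster that all 3 shared, led by Retnla, Cd163 and Lyve1, the ratio turned to 0.25 for CL over saline (-1.03 to 1.44) and was 2.47 for cold over CL (1.47 to 3.61). Monocyte-like cells were most numerous in CL: 18 cold, 2501 CL and 339 saline cells held 5, 85 and 2 UMIs, which gives 62.2 CPM in cold (20.2 to 145), 9.08 CPM in CL (7.25 to 11.2) and 1.72 CPM in saline (0.208 to 6.21). An unnamed cluster led by Chil3 that scored closest to monocytes, with 132 cold, 485 CL and 107 saline cells, is not part of this class.

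In T cell-like and NK cell-like cells, the other lymphocytes, cold was again highest, while CL and saline could not be told apart. T cell-like cells were at 57.0 CPM in cold (45.6 to 70.4), 9.99 CPM in CL (2.06 to 29.2) and 1.44 CPM in saline (0.174 to 5.20), from 86, 3 and 2 UMIs. Their cold over saline log2 ratio, 5.31 (3.41 to 8.38), was the largest that could be computed. NK cell-like cells were at 69.1 CPM in cold (45.5 to 101), 12.7 CPM in CL (3.46 to 32.5) and 9.93 CPM in saline (1.203 to 35.9). Their CL over saline log2 ratio was 0.35 (-2.45 to 3.82). With 27, 4 and 2 UMIs their cold over saline ratio was the smallest of the 10 classes, 2.80 (0.81 to 5.92), or 6.96-fold, and with at most 5% mitochondrial UMIs it was 2.73 with an interval that includes 0 (-0.17 to 8.20).

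The stromal and vascular classes were, with mature dendritic-like cells, the lowest in cold. ASPC-like cells, the adipose stem and progenitor cells from which new fat cells form, were at 9.29 CPM in cold (6.66 to 12.6), 2.84 CPM in CL (1.76 to 4.35) and 0.614 CPM in saline (0.199 to 1.43), from 41, 21 and 5 UMIs. All 3 intervals are separate and the log2 ratio was 3.92 for cold over saline (2.58 to 5.62). These cells were read deeply, with a median of 7412 UMIs in cold, 6521 in CL and 6442 in saline. Endothelial-like cells were at 37.4 CPM in cold (26.7 to 50.9) and 6.52 CPM in CL (2.12 to 15.2), and had 0 UMIs in 367 saline cells. The upper limits of the saline intervals were 3.11 CPM and 1.00% of cells. The floor of 3 counts stood at 2.53 CPM, or 0.817% of cells. Against that floor the counted cold level was 14.8-fold and the CL level 2.58-fold that of saline. With the counting error of both libraries included, the log2 ratio over saline had a lower limit of 3.52 for cold and 0.50 for CL.

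Pericyte or smooth muscle-like cells, which wrap small vessels, were at 21.5 CPM in cold (9.27 to 42.3) and 9.97 CPM in CL (2.06 to 29.1), with 0 UMIs in 82 saline cells. The counted cold level was 2.85-fold the saline floor of 3 counts, and the log2 ratio had a lower limit of 0.87. Schwann-like cells, the glia of peripheral nerves, had 3 UMIs in 64 cold cells, or 15.8 CPM (3.26 to 46.1), and 0 in 32 CL and 60 saline cells, so no fold is given. These were the classes just inside the limit of 50 cells, with at most 82 and 64 cells in a library. Just outside it, erythroid-like cells (at most 34 in a library) had 4 UMIs in cold, 2 in CL and 1 in saline. Neutrophil-like cells (at most 28) had 3, 0 and 0, and mast cell-like cells (at most 7) had 0 in each library. The B cell marker genes summed to 3801 CPM in cold, 13.8 CPM in CL and 1822 CPM in saline erythroid-like cells, against 4735 CPM in cold B cell-like cells. Whether the erythroid-like class held B cells was not tested.

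Within the cold library the order of the classes was resolved only at the top. B cell-like cells exceeded cDC2-like cells by a log2 ratio of 0.37 (0.09 to 0.66). cDC2-like over NK cell-like cells, the next pair, was 0.58 (-0.03 to 1.24), and for no later pair of neighbours among classes with at least 50 cells did the interval exclude 0. In CL, B cell-like cells stood above mature dendritic-like cells (1.66, 0.56 to 2.87) and macrophage-like above ASPC-like cells (0.97, 0.08 to 1.88), and no other pair of neighbours was resolved. In saline no pair was. The highest class level was 14.4 times the lowest in cold and 21.8 times the lowest in CL.

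Depth per cell also differed between libraries: B cell-like cells had a median of 2464.5 UMIs in cold, 1569.5 in CL and 1695 in saline. Each cell was therefore thinned to 1500 UMIs, which left out 160 cold, 545 CL and 829 saline cells with fewer. The share of cells with a Slc15a2 UMI was then 9.67% in cold, 1.33% in CL and 0.570% in saline, against the unthinned 20.7%, 3.21% and 1.21%. Cold had the highest thinned share in 13 of 13 classes. In the small classes that rested on 1 of 54 Schwann-like, 1 of 44 pericyte or smooth muscle-like and 3 of 18 monocyte-like cold cells. B cell-like cells were at 16.02% in cold, 5.22% in CL and 0.912% in saline, against unthinned shares of 27.1%, 8.97% and 1.62%. In cDC2-like cells the thinned share was 14.1% in cold, 2.63% in CL and 0.917% in saline. ASPC-like cells again had the lowest cold share of the 10 classes, 1.01% in cold against 0.0926% in CL and 0.0798% in saline, where CL and saline had 1 such cell each.

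**Figure D2:**
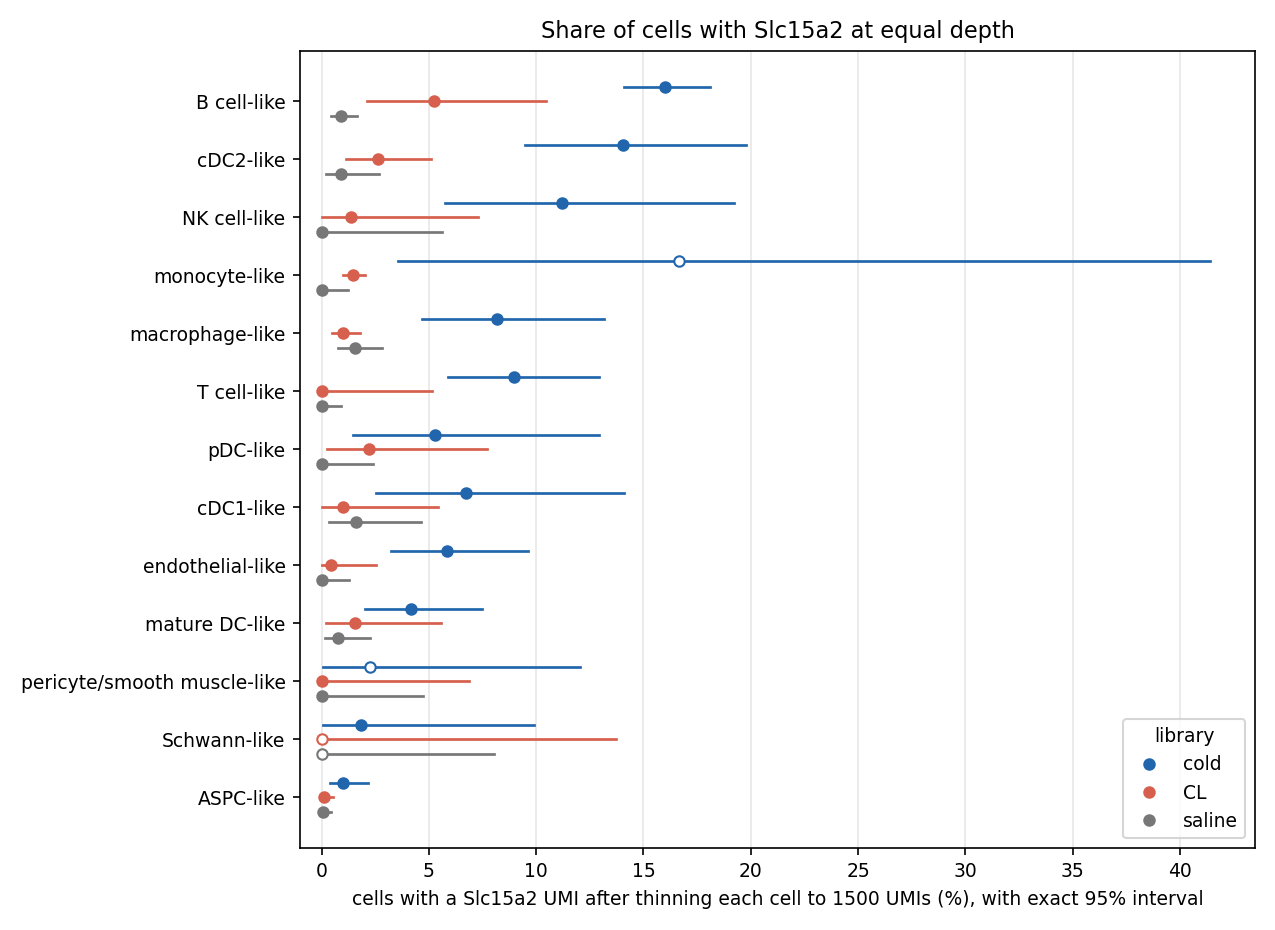
Share of cells with at least 1 Slc15a2 UMI, in percent (x axis), by cell class (rows) after every cell was thinned to 1500 UMIs, with exact 95% intervals for cold, CL and saline; open circles mark classes with fewer than 50 cells. Cold is the highest in all 13 classes, with B cell-like cells at 16.02% in cold, 5.22% in CL and 0.912% in saline. In Schwann-like and in pericyte or smooth muscle-like cells it is so by 1 cell.

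Free RNA from broken cells can place UMIs of one class in droplets of another, and the B cell-like class was both the largest in cold and the richest in Slc15a2. The class with the lowest cold level, ASPC-like cells, had a Slc15a2 UMI in 5.98% of cold cells at a median of 7412 UMIs, against 27.1% of cold B cell-like cells at a median of 2464.5 UMIs. In cold B cell-like cells 533 Slc15a2 UMIs accompanied 18932 UMIs of the B cell marker genes. At that ratio the B marker UMIs seen in other cold classes would bring 2.96 Slc15a2 UMIs into ASPC-like cells, where 41 were counted. In cDC2-like cells it would bring 1.55 where 126 were counted, in macrophage-like cells 1.46 where 52 were counted, and in T cell-like cells 14.98 where 86 were counted. In the 240 cold cells of unnamed clusters, by contrast, it would bring 90.8 where 82 were counted. Of these cells 76 were in a cycling cluster that scored closest to B cells, and the estimate takes no account of B marker UMIs that are a cell's own. Their share was not tested. In cold cells without any B marker UMI the level was 9.12 CPM in ASPC-like, 112 CPM in cDC2-like, 54.6 CPM in macrophage-like and 52.8 CPM in T cell-like cells. It was 41.8 CPM in cDC1-like cells, against 51.2 CPM over all cold cells of that class, and 32.3 CPM in monocyte-like cells (2 UMIs), against 62.2 CPM (5 UMIs). Cold barcodes with fewer than 500 genes, which were left out, held Slc15a2 at 38.1 CPM, above the cold level of endothelial-like, mature dendritic-like, pericyte or smooth muscle-like, Schwann-like and ASPC-like cells. The part of free RNA in the levels was not tested beyond these values. The summed level of the B markers was 23.8 CPM in cold, 3.93 CPM in CL and 46.3 CPM in saline ASPC-like cells, an order other than that of Slc15a2, and 353, 310 and 175 CPM in cold, CL and saline T cell-like cells, the same order. Over all classes described other than B cell-like it ran in cold from 8.05 CPM in pericyte or smooth muscle-like to 498 CPM in monocyte-like cells.

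Slc15a2 was also read in the separate clusters within classes. The B cell-like cluster led by Ighg2c, Igkc and Jchain was at 149 CPM in cold, 79.5 CPM in CL and 7.91 CPM in saline, and the one led by the light chain genes Iglc2 and Iglc1 at 109, 29.5 and 10.5 CPM in cold, CL and saline. The CL value of the Iglc2 cluster rested on 4 UMIs. The remaining B cell-like cluster, led by the heat shock gene Hspa1b, was at 118 CPM in cold, 0 in 8 CL cells and 18.6 CPM in saline (3 UMIs). The larger T cell-like cluster was at 81.9 CPM in cold, 12.8 CPM in CL (2 UMIs in 1 cell, 1.55 to 46.1) and 2.04 CPM in saline (2 UMIs). The cycling T cell-like cluster, led by the proliferation marker Mki67, was at 34.3 CPM in cold, 6.96 CPM in CL (1 UMI, 0.176 to 38.8) and 0 in saline.

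ASPC-like cells were split between different clusters in the 3 libraries. The Pi16 cluster, the more stem-like progenitors, was at 13.3 CPM in cold, 9.74 CPM in CL and 1.17 CPM in saline, with 329, 192 and 683 cells. The Col15a1 cluster was at 5.17 CPM in cold (1.90 to 11.3), 3.78 CPM in CL (0.458 to 13.6) and 0 in saline. The Gdf10 cluster had 2 UMIs in 112 cold cells, 0 in 112 CL cells and 0 in 158 saline cells, so no difference was detectable there at this depth. A cluster led by Timp1, Cxcl9 and Lcn2 held 3 cold, 716 CL and 61 saline cells, and was at 1.76 CPM in CL. Thus within the Pi16 and Col15a1 clusters the CL level lay nearer to the cold level than over the class, and for the Pi16 cluster the cold over CL log2 ratio of 0.45 (-0.61 to 1.64) has an interval that includes 0. The macrophage-like cluster led by Retnla, Cd163 and Lyve1, genes of tissue-resident macrophages, held all 198 cold cells of its class and was at 58.5 CPM in cold, 10.6 CPM in CL and 8.90 CPM in saline. The other, led by Saa3, held 849 CL and 59 saline cells at 4.25 CPM in CL and 0 in saline.

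The size of these ratios was read against all genes with at least 20 UMIs in the same class and pair of libraries. For cold over saline the share of genes at least 2-fold higher was 1.86% in ASPC-like, 1.98% in B cell-like, 2.94% in mature dendritic-like, 3% in endothelial-like, 3.13% in cDC2-like, 3.25% in macrophage-like, 3.45% in cDC1-like, 4.11% in NK cell-like, 4.16% in T cell-like and 6.18% in plasmacytoid dendritic-like cells. The number of genes with a larger ratio than Slc15a2 was 0 in T cell-like and plasmacytoid dendritic-like cells and 1 in ASPC-like, cDC1-like and mature dendritic-like cells. It was 2 in endothelial-like, 3 in cDC2-like, 4 in NK cell-like and macrophage-like, and 10 in B cell-like cells. Slc15a2 was thus near the top of the cold over saline ratios in each class, which is the comparison it was chosen on. In several classes, plasmacytoid dendritic-like and endothelial-like cells among them, it met the minimum of 20 UMIs only through its cold cells. Its place there is in part fixed by that minimum, and the same holds for the cold over CL counts below.

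The other pairs of libraries set Slc15a2 less far apart. For CL over saline, 3.09% of genes were at least 2-fold higher in B cell-like cells and 5 had a larger ratio than Slc15a2, while 5.4% were higher in ASPC-like cells and 117 had a larger ratio. In cDC2-like cells 6.34% were higher and 492 had a larger ratio, and in macrophage-like cells, where Slc15a2 was not higher in CL, 9% of genes were. For cold over CL 14.1% of genes were at least 2-fold higher over all cells, and 167 had a larger ratio than Slc15a2. By class this share was 3.4% in ASPC-like, 3.5% in endothelial-like, 4.02% in NK cell-like, 4.23% in plasmacytoid dendritic-like, 4.38% in cDC1-like, 4.98% in cDC2-like, 6.12% in mature dendritic-like, 6.77% in B cell-like, 6.89% in T cell-like and 10.9% in macrophage-like cells. The genes with a larger cold over CL ratio than Slc15a2 numbered 4 in plasmacytoid dendritic-like and 8 in cDC1-like cells, against 469 in B cell-like and 902 in mature dendritic-like cells.

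The pattern was then set beside that of every other gene that could be measured in all 10 classes. Of 4073 genes with at least 20 UMIs in each class, 0.368% (15 genes) were higher in cold than in both CL and saline in every class by any amount, and 0 were 2-fold higher throughout. In the other direction 35 genes (0.859%) were highest in CL and 15 (0.368%) highest in saline in every class, and 2 of the CL genes (0.0491%) and 0 of the saline genes were so by at least 2-fold. Slc15a2 ranked first by its smallest ratio, which was 1.53-fold, in mature dendritic-like cells against CL. Next came the polyubiquitin gene Ubb at 1.28-fold and the ribosomal protein genes Rpl10 and Rps7 at 1.08-fold and 1.07-fold. Against saline alone 246 genes (6.04%) were higher in cold in every class by any amount, and Slc15a2 was the only 1 of these genes (0.0246%) at least 2-fold higher in cold in each class: its smallest ratio was 6.96-fold, followed by Ubb at 1.42-fold and the tubulin gene Tubb4b at 1.36-fold. Over the 10 classes the log2 ratio of cold over saline had a median of 3.71, with endothelial-like cells at their floor. These counts describe the comparison the gene was chosen on. In several classes Slc15a2 also met the minimum of 20 UMIs only through its cold cells. In plasmacytoid dendritic-like cells it had 21 UMIs in cold, 2 in CL and 2 in saline, and in endothelial-like cells 40, 5 and 0. A gene with so few UMIs in CL and saline enters the set only when it is high in cold, so its rank is in part fixed by that minimum.

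**Figure D3:**
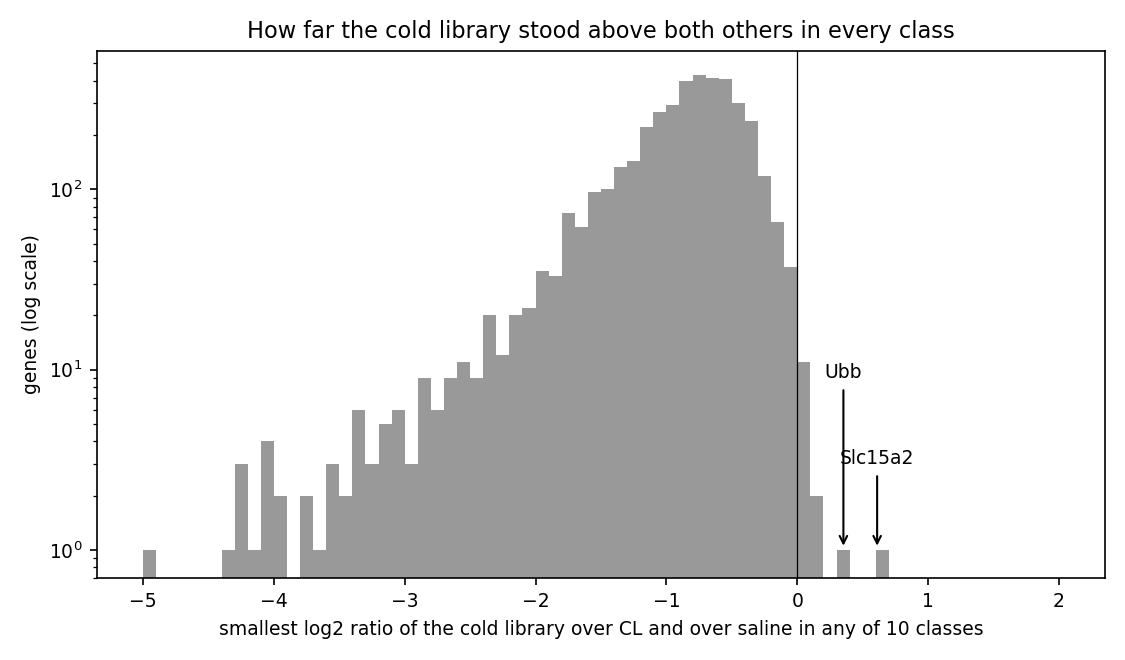
Histogram of 4073 genes by the smallest log2 ratio of CPM of cold over CL or saline found in any of 10 cell classes (x axis), with the number of genes on a log scale (y axis). Slc15a2, at 0.61, is the gene farthest to the right, and Ubb follows at 0.35.

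The genes whose levels ran most alike with Slc15a2 were sought by Pearson's r over 30 points, the 10 classes in each of the 3 libraries, on log2(CPM + 20) centred within each class. The points share libraries and depth, so r is a description. Of 12064 genes ranked, Ubb was the most alike (r = 0.90), and the next were Rpl8 (0.87), Rpl9 (0.85), Rps7 (0.84), Rpl3 (0.84), Rplp0 (0.84), Rpl10 (0.83), the ferritin gene Ftl1 (0.83), Rpl13 (0.82) and the chaperone subunit gene Pfdn5 (0.81). Of these 10 genes, 7 encode ribosomal proteins. Their differences were much smaller: the median log2 ratio of cold over saline was 0.71 for Ubb and between 0.27 and 0.75 for the other members of this list.

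Over all cells, the other measured members of the peptide transporter family were not highest in cold. Slc15a3 and Slc15a4, which carry histidine and peptides across the membranes of endosomes and lysosomes, had enough UMIs to be read. Slc15a3 was at 25.04 CPM in cold (458 UMIs), 173.5 CPM in CL (4864 UMIs) and 33.6 CPM in saline (824 UMIs). Its log2 ratio was -0.42 for cold over saline (-0.59 to -0.26) and 2.37 for CL over saline (2.26 to 2.48). Slc15a4 was at 32.3 CPM in cold, 54.1 CPM in CL and 40.4 CPM in saline, with a log2 ratio of -0.32 for cold over saline (-0.47 to -0.17). Slc15a1, which encodes PEPT1, had 3 UMIs in cold, 0 in CL and 4 in saline, and Slc15a5 had 0 in each.

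Class by class the family members also differed from Slc15a2 in where their transcripts were found, though not in every class. Slc15a3 in macrophage-like cells was at 49.5 CPM in cold, 312 CPM in CL and 58.7 CPM in saline, and in monocyte-like cells at 124, 307 and 212 CPM in cold, CL and saline. In B cell-like cells it was at 6.00 CPM in cold, 9.16 CPM in CL and 8.60 CPM in saline. T cell-like cells were the class in which a family member was at least 2-fold higher in cold than in saline over at least 20 UMIs: Slc15a3 was at 20.5 CPM in cold, 19.99 CPM in CL and 10.1 CPM in saline, with a log2 ratio of 1.03 for cold over saline (0.07 to 2.05). Slc15a4 was at 171 CPM in cold, 162 CPM in CL and 191 CPM in saline in plasmacytoid dendritic-like cells, and at 43.8, 57.3 and 70.4 CPM in cold, CL and saline B cell-like cells.

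**Figure D4:**
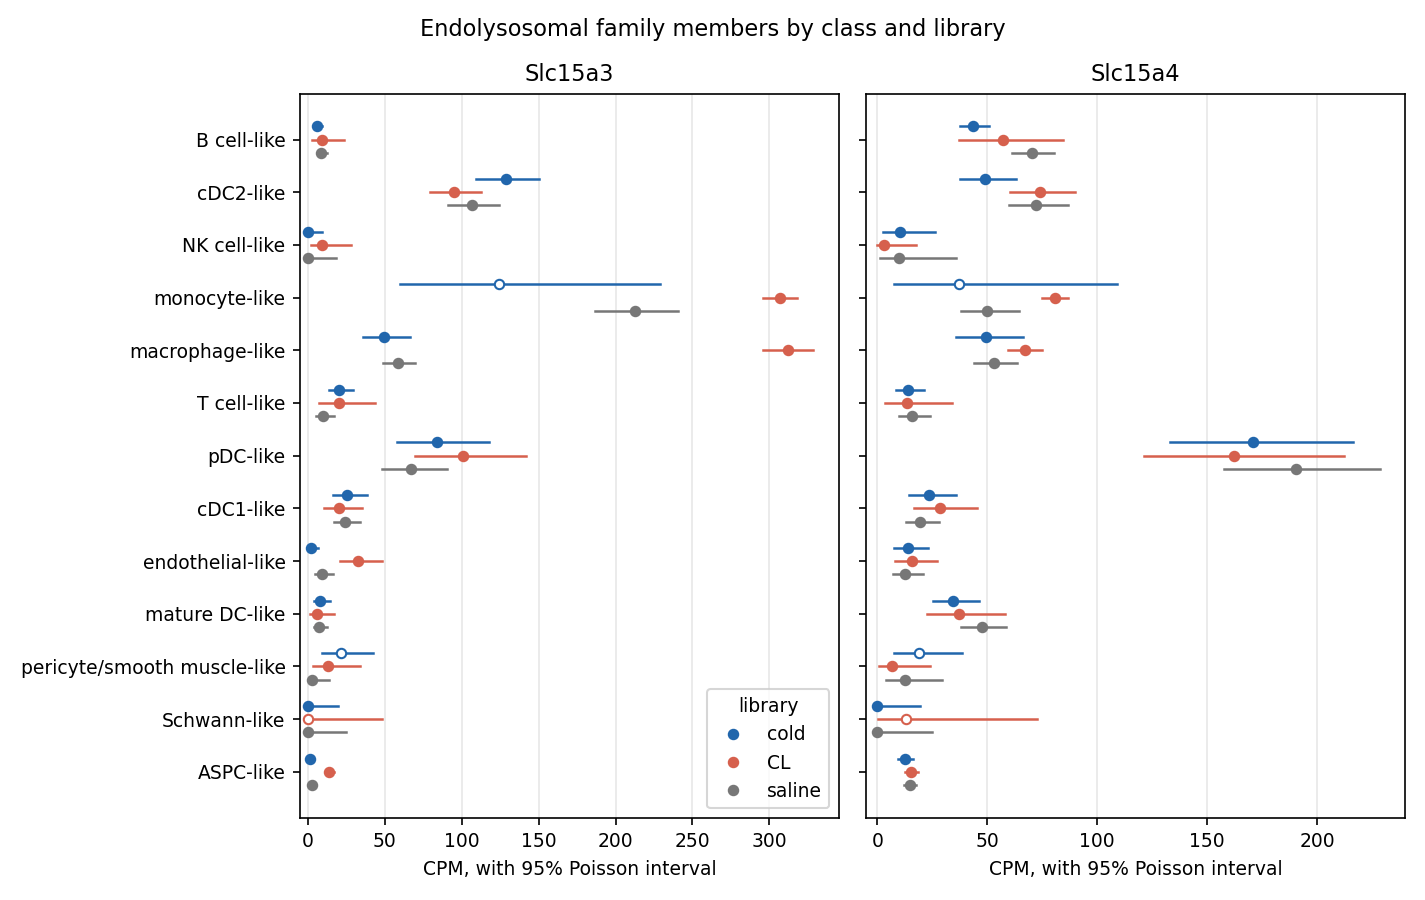
Slc15a3 and Slc15a4 in CPM (x axis) by cell class (rows) for cold, CL and saline, with 95% Poisson intervals. Slc15a3 in macrophage-like cells is at 49.5 CPM in cold, 312 CPM in CL and 58.7 CPM in saline, so cold is not the highest there.

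Genes that act in the same pathways as PEPT2 showed no median shift of that size. With so few of all genes past 2-fold, counts of 0 in lists this short do not set them apart. Of the 13 genes that sense and signal the presence of bacterial muropeptides, all were measured over all cells, and 0 were 2-fold higher and 0 were 2-fold lower in cold than in saline, against 3.05% higher and 2.38% lower over all genes. Their median log2 ratio was -0.10, against 0.03 over all genes. Nod1, the receptor of diaminopimelic acid peptides, was at 18.4 CPM in cold and 19.8 CPM in saline (-0.10, -0.31 to 0.10). Nod2, the receptor of muramyl dipeptide, was at 3.50 CPM in cold and 3.67 CPM in saline (-0.07, -0.55 to 0.41), and their adaptor kinase Ripk2 at 12.5 CPM in cold and 11.1 CPM in saline (0.17, -0.09 to 0.43). In B cell-like cells, where Slc15a2 was highest in cold, 12 of the 13 were measured and 0 passed 2-fold in either direction. Over all genes 1.98% were higher and 3.33% lower there. The median was -0.49, against -0.08 over all genes.

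The endolysosomal Toll-like receptor genes, whose signalling Slc15a4 supports, had all 8 members measured. Of these, 0 were past 2-fold in cold over saline, against 3.05% higher and 2.38% lower over all genes, with a median of -0.10. Tlr7, a receptor of single-stranded RNA, was at 9.40 CPM in cold and 14.5 CPM in saline (-0.63, -0.90 to -0.36). In CL over saline 4 of the 8 were at least 2-fold higher over all cells, against 5.34% of all genes, with a median of 0.94 against -0.13 over all genes. Monocyte-like cells numbered 2501 in CL and 339 in saline. Within single classes the count was 2 of 8 in monocyte-like cells, against 5.19% of all genes, and 2 of 7 in macrophage-like cells, against 9%. The genes of sodium and proton exchange, which keep up the proton gradient that drives PEPT2, had 5 of 8 measured. Of these, 0 were past 2-fold in cold over saline, against the same 3.05% and 2.38% of all genes. The largest ratio there was that of Slc9a3r2, a scaffold protein of the sodium-proton exchanger, at 58.2 CPM in cold and 33.4 CPM in saline (0.80, 0.67 to 0.94).

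Among enzymes that make or cut small peptides, 12 of 13 were measured, 0 were 2-fold higher and 1 was 2-fold lower in cold, against 3.05% higher and 2.38% lower over all genes. That 1 was the dipeptidase gene Dpep2, at 7.05 CPM in cold and 14.7 CPM in saline (-1.06, -1.36 to -0.77). These values are over all cells, and the libraries differ in make-up, with 18 cold and 339 saline monocyte-like cells. In macrophage-like, cDC1-like and plasmacytoid dendritic-like cells 0 measured members were 2-fold lower. There 1 of 8, 1 of 8 and 2 of 5 were higher, against 3.25%, 3.45% and 6.18% of all genes. In Schwann-like cells 1 of 3 was lower, against 7.32%. Among amino acid transporters 11 of 11 were measured, with 1 at least 2-fold higher and 1 at least 2-fold lower, against the same 3.05% and 2.38% of all genes. Slc7a11, the cystine-glutamate exchanger, was at 50.4 CPM in cold and 23.8 CPM in saline (1.08, 0.93 to 1.23). Slc7a8, an exchanger of large neutral amino acids, was at 5.58 CPM in cold and 13.04 CPM in saline (-1.23, -1.56 to -0.90).

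The amino acid transporters did not go one way in all classes. In cDC2-like cells Slc7a11 was at 169 CPM in cold and 26.4 CPM in saline (2.68, 2.19 to 3.19), whereas in ASPC-like cells it was at 1.36 CPM in cold and 4.67 CPM in saline (-1.78, -3.31 to -0.53). Slc3a2, the heavy chain that several amino acid exchangers need, was at 308 CPM in cold and 148 CPM in saline in T cell-like cells (1.06, 0.82 to 1.31), and at 636 CPM in cold and 222 CPM in saline in plasmacytoid dendritic-like cells (1.52, 1.22 to 1.83). In B cell-like cells 0 of 9 measured transporters was 2-fold higher, against 1.98% of all genes. The lysosomal transporter gene Slc36a1 was 2-fold lower (-1.93, -3.56 to -0.54), against 3.33% of all genes.

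A pair of genes known to be induced by mild hypothermia in cultured cells, the RNA-binding protein genes Cirbp and Rbm3, was modestly higher in cold. Cirbp was at 76.7 CPM in cold, 30.9 CPM in CL and 41.3 CPM in saline, with a log2 ratio of 0.89 for cold over saline (0.77 to 1.01). Rbm3 was at 714 CPM in cold, 557 CPM in CL and 407 CPM in saline, with a ratio of 0.81 (0.77 to 0.85). Both ratios were above 0 in each of the 10 classes, but the ratio of Cirbp was 0.04 in NK cell-like cells (-0.97 to 1.13), and its intervals in endothelial-like and plasmacytoid dendritic-like cells also include 0. In ASPC-like cells Cirbp was at 67.5 CPM in cold and 26.5 CPM in saline (1.35, 1.09 to 1.61). Against CL, only 1 of the 2 genes, Cirbp, was higher in cold in ASPC-like and in macrophage-like cells. Rbm3 was not.

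The genes beside Slc15a2 on chromosome 16 were read for a shift of the whole region. Of 78 annotated genes whose start lies within 1000000 bases, 23 had at least 20 UMIs over cold and saline cells, and 2 were at least 2-fold higher and 0 at least 2-fold lower in cold, against 3.05% higher and 2.38% lower over all genes. Their median log2 ratio was 0.08, against 0.03 over all genes. The nearest upstream gene on the same strand, Eaf2, which encodes a factor of transcription elongation known in B cells, lies 7922 bases away at chr16:36792884-36875003. It had 246 UMIs in cold, 27 in CL and 59 in saline, or 13.5, 0.963 and 2.41 CPM in cold, CL and saline, with a log2 ratio of 2.48 for cold over saline (2.07 to 2.92). In B cell-like cells Eaf2 was at 25.8 CPM in cold, 9.16 CPM in CL and 8.28 CPM in saline (1.64 for cold over saline, 1.01 to 2.32). That was the only class in which Eaf2 had at least 20 UMIs over cold and saline cells, a count that Slc15a2 reached in 10 classes, in several of them only through its cold cells. B cell-like cells held 103 of the 246 cold Eaf2 UMIs, and no other class described held more than the 7 of cDC2-like cells. Most of the rest lay in cold cells outside the classes described, so the Eaf2 ratio over all cells rests in part on those cells.

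Few cells had a UMI of both genes at this depth. Among cold cells 798 had a Slc15a2 UMI, 109 had an Eaf2 UMI and 30 had both. Without the cells that had an Eaf2 UMI, Slc15a2 was at 61.9 CPM over all cold cells and 138 CPM in cold B cell-like cells, much as with them. The other neighbour past 2-fold, Stfa2l1, a member of the stefin A family of protease inhibitors, rested on 18 UMIs in cold and 7 in saline (1.79, 0.46 to 3.29). Cd86, which encodes a co-stimulatory ligand of T cells, was at 101 CPM in cold and 69.4 CPM in saline (0.54, 0.45 to 0.64). Golgb1, a Golgi protein gene whose start lies beside that of Eaf2, was at 104 CPM in cold and 105 CPM in saline (-0.01, -0.09 to 0.08).

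**Figure D5:**
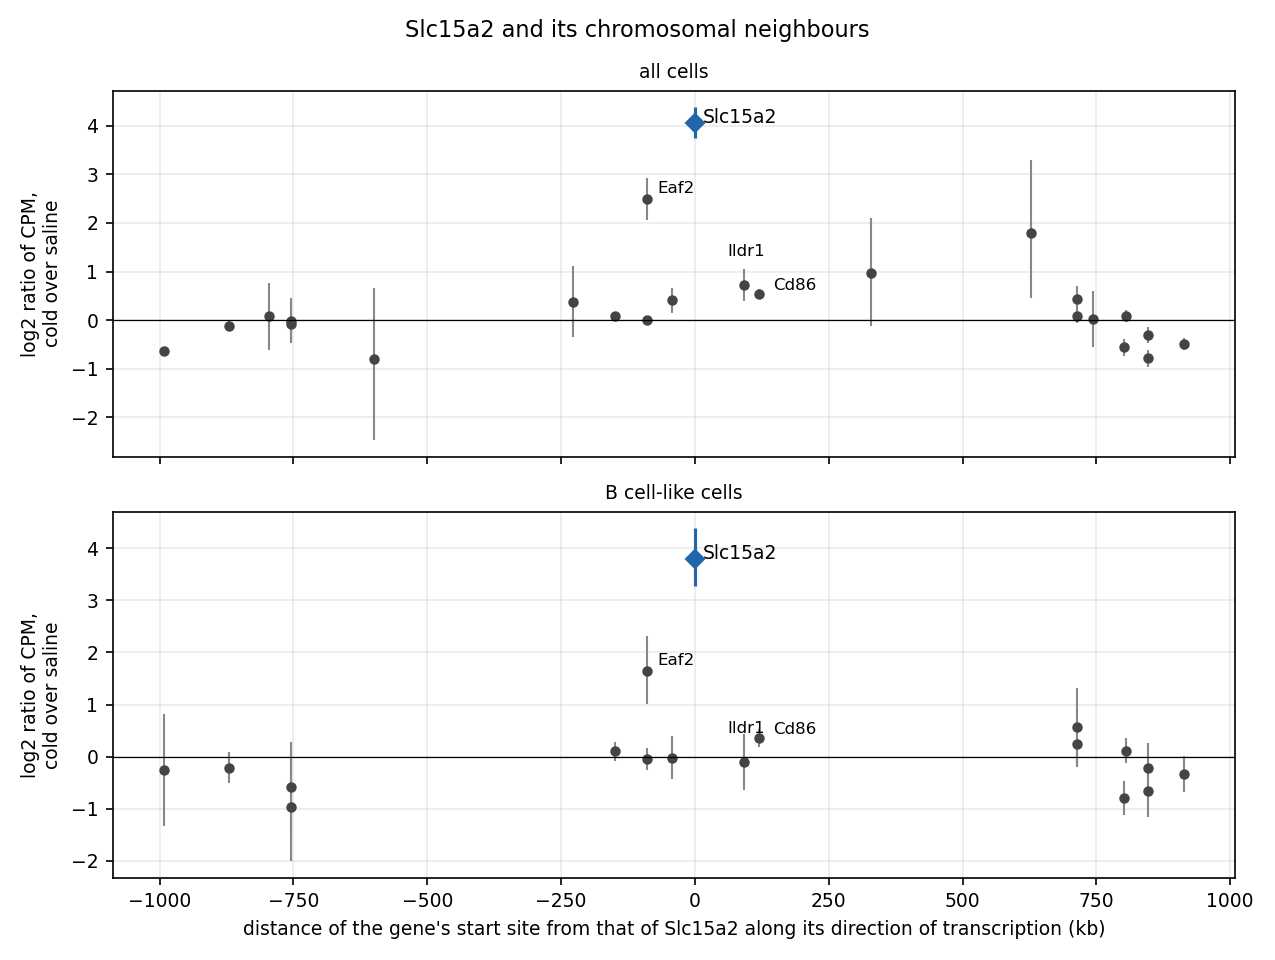
Log2 ratio of CPM of cold over saline (y axis) for Slc15a2 (diamond) and the measured genes around it (points), against the distance of their start from that of Slc15a2 along its direction of transcription, in kilobases (x axis), for all cells (top) and B cell-like cells (bottom), with 95% intervals. Slc15a2 is at 4.06 over all cells and 3.80 in B cell-like cells, Eaf2 at 2.48 and 1.64, and most other neighbours lie near 0.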

How the data were processed

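Per the labels' protocols, inguinal fat was dissociated with a Miltenyi kit, and its stromal vascular cells went into 10x 3' v3 libraries. The authors' deposited values are unnormalized UMI counts, made with Cell Ranger 3.0.2 per the file headers; the submitters' processing notes name mm10. Counts totalled 19899223 UMIs in cold, 29323106 in CL and 25875379 in saline.

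Barcodes with at least 500 genes and at most 15% mitochondrial UMIs were kept. Counts were scaled to 10000 per cell and logged, and clustered in scanpy 1.11.5 (Python 3.11.15): 2000 variable genes without Slc15a2, 30 principal components, 15 neighbours, Leiden resolution 1. A cluster took a class name when at least 3 of its markers reached 50 CPM at a log2 fold of 1 or more over the other clusters. Clusters that met no class stayed unnamed, as did clusters whose top genes held more markers of another class. That second rule left out a cluster led by Chil3 that scored closest to monocytes (132 cold, 485 CL and 107 saline cells). It also left out a cycling cluster led by Hist1h1b that scored closest to B cells (76 cold, 2 CL and 17 saline cells). Doublets were kept. Scrublet scores at the expected rate marked 3.09% of cold, 5.36% of CL and 5.02% of saline cells, whose removal is an alternative.

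CPM is the summed UMIs of a gene per 1000000 UMIs of all genes in the class. Intervals at 95% are exact (Poisson for CPM, Clopper-Pearson for shares, conditional binomial for ratios, computed in scipy 1.17.1) and cover counting error only. With 1 library per group no test between groups was made. A gene counted as measured with at least 20 UMIs in the pair of libraries; libraries at 0 were set to a floor of 3 counts. The interval code was checked on simulated counts. Whether the authors counted strand-specifically beyond the 3' chemistry, and their gene annotation, are not given in the sources used here.

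Slc15a2, the gene lists and the comparisons were chosen with earlier results of these data known. List members were open to naming with at least 20 UMIs; those past 2-fold and the defining receptors and carriers are named. Coordinates are from GENCODE M21, to which 28339 of 28692 gene IDs matched, and the promoter is from RefSeq (GRCm38.p6). Alternatives tried were other cluster resolutions, stricter cell filters, doublets removed, other totals, other minimum UMIs, the largest cluster of each class, cells without B markers and cells richest in Slc15a2 left out.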

Additional observations from a re-analysis of the deposited data

Results flagged for a closer look

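The barcodes that the filters left out were looked at because the comparisons do not use them. In cold barcodes with fewer than 500 genes, Slc15a2 was at 38.1 CPM (44 UMIs, 27.7 to 51.2), against 6.97 CPM in CL (7 UMIs, 2.80 to 14.4) and 3.67 CPM in saline (4 UMIs, 1.00 to 9.39). In all cold barcodes left out, those over the mitochondrial limit included, it was at 55.3 CPM (89 UMIs, 44.4 to 68.0), against 5.40 CPM in CL (7 UMIs, 2.17 to 11.1) and 6.70 CPM in saline (9 UMIs, 3.06 to 12.7). In both sets the cold level was above the saline level with no overlap of the intervals, as among the cells kept. What these barcodes hold was not examined further.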

How the results depend on the processing

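Cold was the highest library by CPM in 13 of 13 classes, and in 12 of 13 under 3 alternatives. With at most 5% mitochondrial UMIs mature dendritic-like cells were at 18.0 CPM in cold, 20.9 CPM in CL and 2.58 CPM in saline. Without the 3 cells richest in Slc15a2, Schwann-like cells were at 0 in each library, and in the largest cluster of each class the monocyte-like cells, with 2 in cold, were at 0 in cold, 10.0 CPM in CL and 0 in saline. It was highest in 12 of the 12 classes that could be read at a Leiden resolution of 0.5 and without cells that held a B marker UMI. By share of cells it was highest in 13 of 13 classes, and in 12 of 12 at the resolution of 0.5.

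The median log2 ratio over classes was 3.71 for cold over saline (3.31 to 4.19 over the alternatives), 2.48 for cold over CL (2.19 to 2.71) and 1.61 for CL over saline (1.00 to 2.66). Of 267 ratios of single classes, 6 moved outside their own interval, and 0 of those whose interval excluded 0 changed direction. Without its 3 richest cells in each library, the ASPC-like ratio was 5.93 for cold over saline and 4.23 for CL over saline. In saline those 3 cells held 4 of the 5 Slc15a2 UMIs of the class, so both ratios have next to no saline count left and do not show a larger difference. In 13 cases an interval came to include 0, 6 of them with at most 5% mitochondrial UMIs. No gene was 2-fold higher in cold over both others in every class under any minimum count tried, and 15 were higher by any amount. Of 97 medians of a gene list in a class, 53 were above 0, and 55 were without mitochondrial, ribosomal protein and haemoglobin genes in the total. The alternatives without B marker cells, by largest cluster and above 1-fold were chosen after seeing the data. No paired analysis was possible because each group is 1 library. Counting depth limits the CL and saline values most: T cell-like, NK cell-like, plasmacytoid dendritic-like, cDC1-like and endothelial-like cells had at most 6 UMIs in each of those libraries.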

Other observations

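Cells in clusters that took no class name showed the same order for Slc15a2, at 56.7 CPM in cold (82 UMIs), 15.6 CPM in CL (25 UMIs) and 2.27 CPM in saline (2 UMIs). The unnamed cluster led by Chil3, Thbs1 and S100a9 was at 70.9 CPM in cold, 16.3 CPM in CL and 3.28 CPM in saline.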
